A study of Mus musculus with 4 samples.

Results

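The replication-dependent histone genes make the H1, H2A, H2B, H3 and H4 proteins that package newly copied DNA. Here they are the array probes whose gene name in the files starts with Hist1h, Hist2h, Hist3h or Hist4h followed by a histone class, which gave 68 probes for 56 gene names, among 56310 usable probes for 36942 gene names. The choice used names only, and no measured value. By class there were 8 probes for H1, 21 for H2A, 18 for H2B, 10 for H3 and 11 for H4. On build mm9, 48 of them lie on chromosome 13, 14 on chromosome 3, 5 on chromosome 11 and 1 on chromosome 6. A probe entered the comparison if the scanner software judged it well above background on each array of 1 genotype or of both. This held for 59 probes, of which 56 were well above background on all 4 arrays. Of the 9 others, 5 were above background on no array, 3 on 1 array and 1 on 2 arrays of different genotypes.

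Regulatory T (Treg) cells were differentiated in vitro from sorted naive CD4+ cells of C57BL/6 mice, with 2 arrays labelled Junbfl/flCd4-Cre and 2 labelled Control. The first carry floxed alleles of Junb, which encodes an AP-1 transcription factor subunit, with a Cre recombinase driven by Cd4 promoter elements and so expressed in T cells. The controls carry the same floxed alleles (Junbfl/fl) and, by their label, no Cre. For 3 days, cells of both genotypes were stimulated through plate-bound anti-CD3 (1 μg/ml) with anti-CD28 (0.5 μg/ml), antibodies against IFN-γ and IL-4 (5 μg/ml each) and human TGF-β1 (5 ng/ml). No label gives an age, or tells whether 2 arrays of the same genotype stem from different mice or cultures. The p-values therefore rest on array-to-array spread that may be only technical.

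Histone mRNAs of this kind accumulate in S phase, when DNA is copied, and are lost when it ends. They carry no poly(A) tail; their message ends just after a conserved stem-loop that is bound by the protein Slbp. Some of these genes also give longer, polyadenylated transcripts, which are known from cells that have stopped dividing. The labelling kit named in the labels starts copying from an oligo(dT) primer, and how far tail-less messages enter the labelled RNA was not measured here. In bulk RNA, fewer cells in S phase and less histone RNA per cell cannot be told apart.

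The files list for each probe its start in the transcript, and the histone probes are divided by it here. Each start is counted in the probe's own listed transcript. Whether near and far probes of a gene belong to the same message was not tested. Near probes are those starting before base 500, or before base 700 for the longer H1 genes, so that they lie in the coding region or close to either side of it. There were 48 of these, the last starting at base 459 in the core histones and at base 663 in H1. Far probes start beyond that point, and the 20 of them ran from base 505 to base 2884. This division was drawn after the values were seen, so differences between near and far probes are described and not tested. Just inside the limit, the Hist1h2ao probe at base 459 differed by -1.05 on the log2 scale between genotypes; just outside it, the Hist3h2ba and Hist1h2ae probes at base 542 differed by 0.30 and -0.82.

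The following probes hold the stem-loop, written in capitals within 30 bases of probe sequence read 5′ to 3′ along the message. They are shown because they end a message of the tail-less kind.
Hist1h3a: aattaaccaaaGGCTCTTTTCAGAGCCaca
Hist1h3g: cactttaaaGGCTCTTCTTAGAGCCaccca
Hist1h3i: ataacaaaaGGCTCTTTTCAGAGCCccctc
Hist1h2bf: taacccaaaGGCTCTTTTCAGAGCCaccta
Hist2h2bb: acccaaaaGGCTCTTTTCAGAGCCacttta
Hist1h4m: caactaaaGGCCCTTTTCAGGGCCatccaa
The histone stem-loop consensus, with its conserved stem and loop letters fixed and the others free, was searched on both strands. It was found in these 6 histone probes, all near ones, and in 0 of 20 far probes, against 13 of all 56310 probes (0.0231%). In mm9 these probes are at chr13:23853756-23853815 (minus strand), chr13:23627719-23627778 (plus), chr13:21874784-21874843 (minus), chr13:23665629-23665688 (minus), chr3:96074056-96074115 (plus) and chr13:21903960-21904019 (plus), in the order shown.

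These 4 far probes hold a hexamer of the kind that directs polyadenylation, in capitals.
Hist2h2bb: gttgtcagtttgAATAAAgacagagaaact
Hist2h2be: gatcgAATAAAtccattcactgcatgtgca
Hist3h2ba: gttcataatggtattAATAAAtttggttca
Hist1h2be: gtactgttcattATTAAAgcattcctgatt
Along the message, AATAAA was in 3 far probes and 1 near probe, that of Hist1h2ag, against 9.77% of all probes, and ATTAAA was in 1 far probe and 0 near probes, against 3.85%, so the letters alone are common. Hist2h2bb is in both sets: its stem-loop probe starts at base 433 and its AATAAA probe at base 1348.

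Histone genes are copies of each other, and several probes can bind the message of a neighbour. Of the 68 probes, 19 list several RefSeq accessions, 34 list 1 and 15 list none. The H2A coding probes below show the problem, with the stretch shared with the Hist1h2ah probe in capitals.
Hist1h2ah: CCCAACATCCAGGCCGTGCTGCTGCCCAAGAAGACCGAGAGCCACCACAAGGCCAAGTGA
Hist1h2aa: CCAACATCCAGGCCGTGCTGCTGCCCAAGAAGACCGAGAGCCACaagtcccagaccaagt
Hist1h2ak: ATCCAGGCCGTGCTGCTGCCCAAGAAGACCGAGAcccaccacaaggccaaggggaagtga
The Hist1h2aa probe shares 44 of its 60 bases with that of Hist1h2ah, and the Hist1h2ak probe shares 34. Signals of such probes belong to the H2A genes jointly and cannot be assigned to a single gene.

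Each array's signals are given below divided by that array's 75th percentile over probes, and called scaled signals. That percentile was 119 and 101 on the 2 arrays labelled Junbfl/flCd4-Cre, against 151 and 145 on the Control arrays. Between 59.3% and 66.3% of spots were well above background, and no histone probe was saturated. Junb itself was read to check the labels. Its coding-region probe (chr8, from 87501881, mm9) had raw processed signals of 4.11 and 1.47, both at background level, on the arrays labelled Junbfl/flCd4-Cre, and 47.2 and 31.7 on the Control arrays. It was at least 5.71-fold lower (limma adjusted p = 0.0396), and it entered the test only through the Control arrays. The probe further along the gene read 1053 and 10078 on the arrays labelled Junbfl/flCd4-Cre, against 9791 and 9072 on Control arrays. On that probe the second array labelled Junbfl/flCd4-Cre does not stand below the controls, and the extent of the deletion is not given, so genotypes are named here as the labels give them.

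The histone probes as a whole stood lower on the arrays labelled Junbfl/flCd4-Cre, but hardly any passed the test. Across the 59 tested probes the median log2 difference was -0.93, against -0.01 over all 33606 tested probes. Over all 68 histone probes, with the 9 dim ones, it was -0.88. In 40 of the 59 both arrays labelled Junbfl/flCd4-Cre were below both Control arrays, which held for 37.8% of all tested probes. The reverse held for 11 of them, against 34.4% of all. At an adjusted p under 0.05 in limma, 1 histone probe was called higher and 0 were called lower, while 5.53% of all probes were called higher and 1.25% lower. At an unadjusted p under 0.05, 9 histone probes were higher and 29 lower, against 19.8% and 18.4% of all probes. With arrays scaled to their median instead, 2 histone probes were called higher and 35 lower, against 7.16% and 31.4% of all probes. With the replicate number as a block, 6 histone probes were called higher and 17 lower, against 17.1% and 8.26% of all probes. No label gives the numbers as pairs, and 2 pairs cannot settle it.

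**Figure D1:**
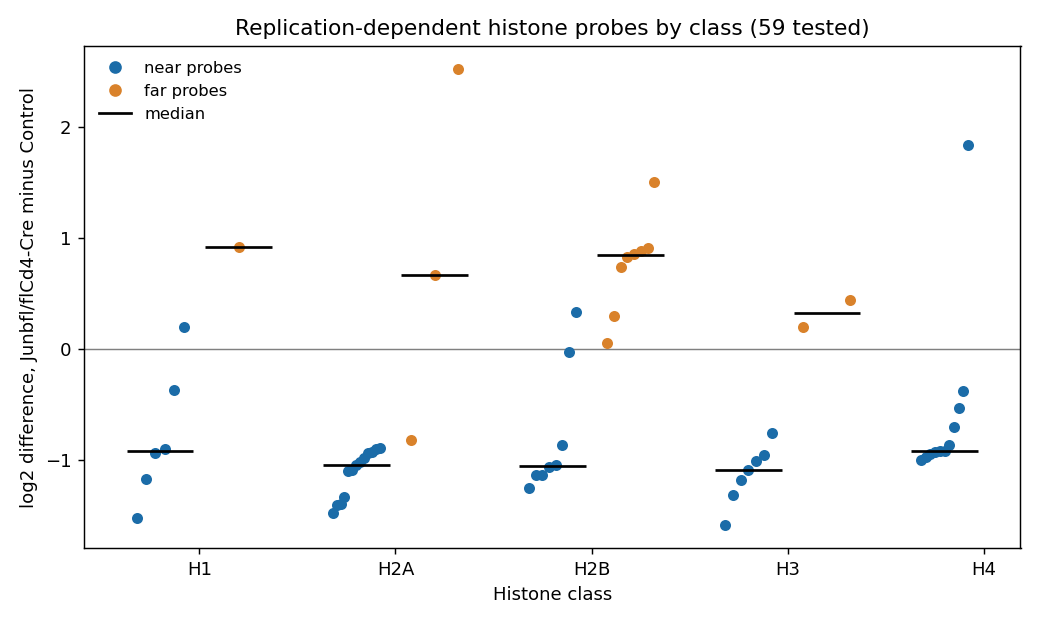
Log2 difference between genotypes (labelled Junbfl/flCd4-Cre minus Control) for each of the 59 tested histone probes, by histone class, with near probes in blue, far probes in orange and medians as black bars. The near probes have medians between -1.09 and -0.92 in the 5 classes, and 13 of the 14 far probes lie above 0.

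The linker histone H1, which binds where DNA enters and leaves the nucleosome, had 6 near probes with a median log2 difference of -0.93. Both arrays labelled Junbfl/flCd4-Cre were below both Control arrays in 5 of the 6. Hist1h1b had scaled signals of 6.14 and 6.00 on arrays labelled Junbfl/flCd4-Cre and 27.3 and 11.2 on Control arrays. The groups did not overlap, and the difference was -1.52 ± 0.47 (SE of the limma fit; 2 arrays per genotype here and below; adjusted p = 0.103). Hist1h1a followed with 0.913 and 0.986 on arrays labelled Junbfl/flCd4-Cre, against 3.11 and 1.47 on Control arrays, a difference of -1.17 ± 0.41 (adjusted p = 0.122). Hist1h1e, the H1 probe with the highest mean, had 21.5 and 20.9 on arrays labelled Junbfl/flCd4-Cre, against 56.9 and 29.2 on Control arrays, a difference of -0.94 ± 0.37 (adjusted p = 0.144). In these 3 genes Control array 1 was the highest of the 4. Hist1h1d differed by -0.91 ± 0.36 (adjusted p = 0.147). Hist1h1t, the testis H1, had low and overlapping scaled signals of 0.119 and 0.0812 on arrays labelled Junbfl/flCd4-Cre, against 0.0847 and 0.0871 on Control arrays, and its difference of 0.19 ± 0.24 turned negative under other scalings.

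Every H2A near probe that was tested stood lower on the arrays labelled Junbfl/flCd4-Cre. H2A pairs with H2B in the dimers that flank H3 and H4 in the nucleosome. All 13 had both arrays labelled Junbfl/flCd4-Cre below both Control arrays, with a median log2 difference of -1.05 and a range from -1.48 to -0.90. The 2 probes with the highest mean were Hist1h2ah, with scaled signals of 301 and 284 on arrays labelled Junbfl/flCd4-Cre against 719 and 493 on Control arrays, and Hist1h2ag, with 279 and 258 against 698 and 467. Their differences were -1.03 ± 0.24 and -1.09 ± 0.25 (adjusted p = 0.0746 and 0.0734).

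Among near H2A probes, the 9 that share at least 29 bases with the probe of another histone gene read nearly the same difference, from -1.10 to -0.90 with a median of -0.98. The 4 tested ones that share fewer had a median of -1.41. Hist1h2ab, with 15 shared bases, had scaled signals of 48.2 and 43.3 on arrays labelled Junbfl/flCd4-Cre and 178 and 92.0 on Control arrays, a difference of -1.48 ± 0.37 (adjusted p = 0.0782). The near probe of Hist3h2a had 39.5 and 39.4 on arrays labelled Junbfl/flCd4-Cre, against 145 and 76.2 on Control arrays, a difference of -1.41 ± 0.35 (adjusted p = 0.0794). Hist2h2ab was dim, at 0.0795 and 0.0909 on arrays labelled Junbfl/flCd4-Cre and 0.254 and 0.183 on Control arrays, and came closest to the threshold of these 13 (-1.34 ± 0.23, adjusted p = 0.0527).

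The single histone probe that passed the test was a far H2A probe, and it rose. The Hist1h2ac probe starts at base 2426 of its listed transcript. Its scaled signals were 0.232 and 0.184 on arrays labelled Junbfl/flCd4-Cre and 0.0356 and 0.0361 on Control arrays, where neither spot was well above background. Against each Control array's lowest signal well above background, or the probe's own signal where that was higher, it was at least 5.18-fold higher (adjusted p = 0.0265). It entered the test only through the genotype in which it is bright. By signal it lies in the dimmest class of tested probes, described below. In that class 949 of 6721 probes were called higher and 65 lower, with a median difference of 0.68. In the authors' deposited table the log2 difference of the Hist1h2ac probe was 0.61 with an adjusted p of 0.0894, so there it was not called. The other tested far H2A probes read 2.94 and 3.13 on arrays labelled Junbfl/flCd4-Cre against 1.46 and 2.50 on Control arrays for Hist3h2a (0.67 ± 0.31, adjusted p = 0.189), and 0.0628 and 0.0728 against 0.154 and 0.0924 for Hist1h2ae (-0.82 ± 0.31, adjusted p = 0.135). Hist1h2ae was the only tested far probe of any class with a negative difference.

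H2B had as many far probes as near ones, and they differed in opposite directions. Of its 16 tested probes 8 were near, with a median log2 difference of -1.06, and 8 were far, with a median of 0.84; together they gave 0.17, which turned negative under every other scaling tried. Among near probes, the 2 brightest were Hist1h2bm, at 5.61 and 5.83 on arrays labelled Junbfl/flCd4-Cre and 18.1 and 8.77 on Control arrays, and the probe of Hist1h2bb at base 224, at 5.84 and 5.86 against 19.0 and 8.73. Both differed by -1.14, with standard errors of 0.39 and 0.42 and adjusted p of 0.120 and 0.132. Each of these 2 probes lists 4 RefSeq accessions, so its signal may not belong to the named gene alone. The other Hist1h2bb probe, at base 101, was the most negative at -1.25 ± 0.44 (adjusted p = 0.123). Hist1h2ba, the testis H2B, read 3.70 and 3.53 on arrays labelled Junbfl/flCd4-Cre and 10.6 and 5.42 on Control arrays. Its probe shares up to 17 bases with that of another histone gene. Of 8 germ cell markers, Prm2 and Tnp2 were well above background on all 4 arrays and rose, by 1.61 and 1.02 on the log2 scale (adjusted p = 0.0399 and 0.0461), Tnp1 and Prm1 were above it on some arrays, and Ddx4, Dazl, Sycp3 and Acrv1 on none.

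The near H2B probes that did not follow the rest were Hist1h2bf and Hist3h2ba. Hist1h2bf, which holds a stem-loop, read 5.41 and 7.04 on arrays labelled Junbfl/flCd4-Cre and 6.33 and 3.80 on Control arrays, so the genotypes overlapped (0.33 ± 0.32, adjusted p = 0.474). Hist3h2ba read 0.355 and 0.355 on arrays labelled Junbfl/flCd4-Cre and 0.339 and 0.389 on Control arrays (-0.03 ± 0.16, adjusted p = 0.896).

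In the far H2B probes all 8 differences were positive, and in 6 both arrays labelled Junbfl/flCd4-Cre were above both Control arrays. The far probe of Hist2h2bb, shown above with its AATAAA, had scaled signals of 0.643 and 0.321 on arrays labelled Junbfl/flCd4-Cre and 0.185 and 0.139 on Control arrays (1.5 ± 0.40, adjusted p = 0.0858). Hist2h2be had far probes at bases 2534 and 2337. The first, also shown with its AATAAA, read 3.17 and 2.50 on arrays labelled Junbfl/flCd4-Cre against 1.35 and 1.66 on Control arrays (0.91 ± 0.22, adjusted p = 0.0751), and the other differed by 0.74 ± 0.22 (adjusted p = 0.0996). These 2 probes read the same transcript and are not independent. Hist1h2bc differed by 0.89 and Hist1h2be by 0.85, with adjusted p of 0.110 and 0.0929. Hist1h2bq was well above background on neither Control array and entered only through the other genotype; it was at least 1.62-fold higher (adjusted p = 0.0877). The Hist3h2ba and Hist1h2bg far probes overlapped between genotypes, at 0.30 ± 0.32 and 0.05 ± 0.44.

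H3, which with H4 forms the core of the nucleosome, had 7 tested near probes, and all 7 had both arrays labelled Junbfl/flCd4-Cre below both Control arrays. Their median log2 difference was -1.09. Hist1h3g, read at its stem-loop, had the most negative difference of all histone probes: 0.511 and 0.373 on arrays labelled Junbfl/flCd4-Cre and 2.24 and 0.776 on Control arrays, or -1.59 ± 0.58 (adjusted p = 0.129). Its control arrays lie further apart than its genotypes do at their nearest. Hist1h3a, also read at its stem-loop, had 1.06 and 0.928 on arrays labelled Junbfl/flCd4-Cre and 3.57 and 1.73 on Control arrays (-1.32 ± 0.40, adjusted p = 0.0996). The brightest were Hist1h3d and Hist1h3c, with differences of -0.76 ± 0.26 and -1.19 ± 0.43 (adjusted p = 0.120 and 0.130). The Hist1h3d probe lists 4 RefSeq accessions, so its signal may not belong to that gene alone. The 2 tested far H3 probes, of Hist2h3c1 and Hist2h3c2, differed by 0.44 ± 0.23 and 0.20 ± 0.54, and Hist2h3c2 overlapped between genotypes. Both turned negative when arrays were scaled to their median.

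H4 had 11 tested probes, all near. In 8 of them both arrays labelled Junbfl/flCd4-Cre were below both Control arrays, and the class median was -0.92. The brightest, Hist1h4d at base 278, read 138 and 124 on arrays labelled Junbfl/flCd4-Cre and 330 and 190 on Control arrays (-0.93 ± 0.32, adjusted p = 0.118). This probe was spotted 10 times per array, and its repeat spots had an SD of 0.017 to 0.028 log2 within an array. Hist1h4k at base 300 read 73.4 and 63.9 on arrays labelled Junbfl/flCd4-Cre and 184 and 103 on Control arrays (-1.01 ± 0.33, adjusted p = 0.113), the most negative of the class. That Hist1h4k probe lists 4 RefSeq accessions, so its signal may not belong to that gene alone. Hist4h4, the H4 gene on chromosome 6, differed by -0.97 ± 0.33 (adjusted p = 0.116).

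Hist1h4h ran the other way from the rest of its class. It had scaled signals of 2.50 and 3.22 on arrays labelled Junbfl/flCd4-Cre and 0.628 and 0.999 on Control arrays, with no overlap. Its log2 difference was 1.84 ± 0.30 with an adjusted p of 0.0502, just outside the threshold. In the authors' deposited table its log2 difference was 1.71 with an adjusted p of 0.0432, the 1 replication-dependent histone accession of 54 called there; of all 26594 accessions 1.76% were called higher and 0.651% lower. Its probe starts at base 24 and lists a single RefSeq accession; it shares up to 14 bases with the probe of another histone gene, Hist1h4i. Hist1h4i and Hist1h4m differed by -0.38 ± 0.36 and -0.54 ± 0.40, and their genotypes overlapped.

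**Figure D2:**
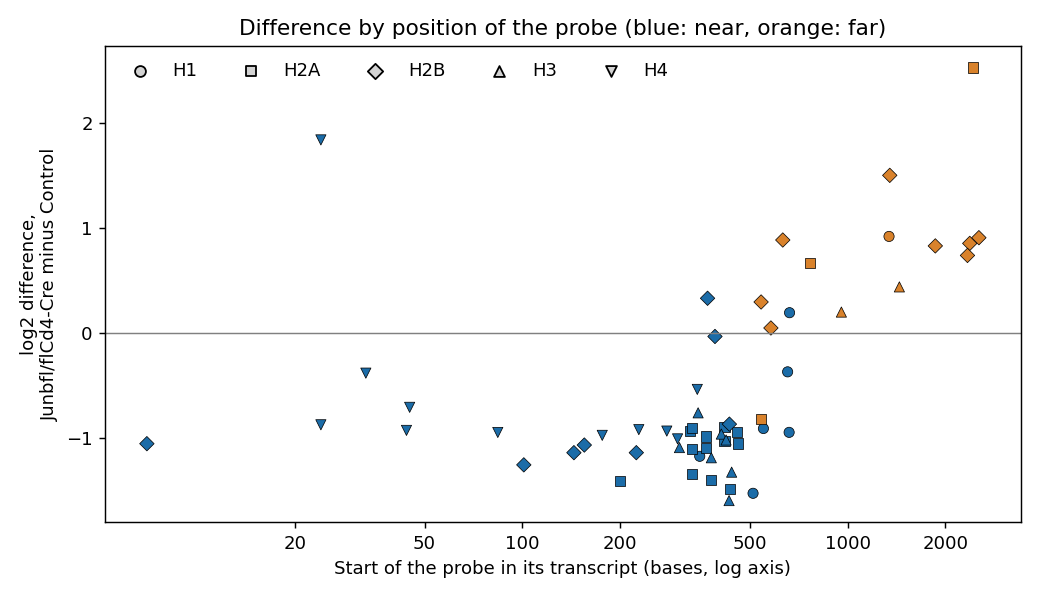
Log2 difference between genotypes for each tested histone probe against the base at which the probe starts in its transcript (log axis), with histone class by symbol. Below the limit 42 of 45 differences are negative, Hist1h4h at base 24 being the highest exception (1.84), and beyond it 13 of 14 are positive.

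Over all classes, the 45 tested near probes had a median log2 difference of -0.97, a fold of 0.51. In 39 of them both arrays labelled Junbfl/flCd4-Cre were below both Control arrays and in 1 above, against 41.0% and 30.4% of all probes well above background on every array. The 14 tested far probes had a median of 0.79, a fold of 1.72. They include Hist1h2ac and Hist1h2bq, which entered only through the genotype in which they are bright. The 11 far probes bright enough on every array to pass in both genotypes had a median of 0.74, with 8 wholly above and 1 wholly below. Near probes of the Hist1 and Hist2 clusters had medians of -0.98 and -0.96. The near probes that list 1 RefSeq accession had a median of -1.0 (28 probes), and those that list several had -0.94 (17 probes). The 19 sharing fewer than 15 bases with any other histone gene's probe had a median of -1.05.

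Signal strength moved with the differences on these arrays, and the near probes are mostly bright. Among all tested probes the median difference was 0.68 in the dimmest 20% of probes and -0.35 in the brightest 20%, of which 68.9% were wholly below and 12.2% wholly above. Of the 45 near probes 28 were in this brightest class, with a median of -1.02 and 27 wholly below. In the next 20%, where the median of all probes was -0.23, the 11 near probes had a median of -0.87 and the 4 far probes a median of 0.81, all 4 wholly above. Of all probes in that class 20.4% were wholly above. In the second dimmest 20%, where all probes had a median of 0.27, the 2 near probes had -1.34 and -1.25 and the 4 far probes a median of 0.65. In the middle 20%, where all probes had a median of 0.01, the 3 near probes had a median of -0.96 and the 2 far probes had 0.30 and 0.92. In the dimmest 20% the 1 near probe, Hist1h1t, stood at 0.19, and the 4 far probes had a median of 0.44, below that of all probes there, with Hist1h2ae at -0.82.

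In 4 genes both a near and a far probe were tested, which compares probes given the same gene name on the same arrays. In Hist3h2a the far probe differed by 0.67 and the near probe by -1.41, so the ratio of far to near signal was 4.22-fold higher on arrays labelled Junbfl/flCd4-Cre. In Hist2h2bb the ratio was 5.17-fold higher, with -0.87 at the stem-loop probe and 1.5 at the AATAAA probe. In Hist1h1c it was 2.44-fold higher: the near probe read 2.56 and 2.37 on arrays labelled Junbfl/flCd4-Cre against 3.71 and 2.72 on Control arrays (-0.37 ± 0.22), and the far probe 1.00 and 0.925 against 0.462 and 0.561 (0.92 ± 0.18, adjusted p = 0.0618). In these 3 genes the genotypes did not overlap in this ratio. In Hist3h2ba it was 1.26-fold higher, and the genotypes overlapped. With 2 arrays per genotype an exact two-sided permutation test cannot go below p = 0.333, so these ratios stand as descriptions. The far probe of Hist2h2bb lies 8698 bases from the near one in mm9, against 567 in Hist3h2a and 688 in Hist1h1c; whether both belong to a single message was not tested.

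**Figure D3:**
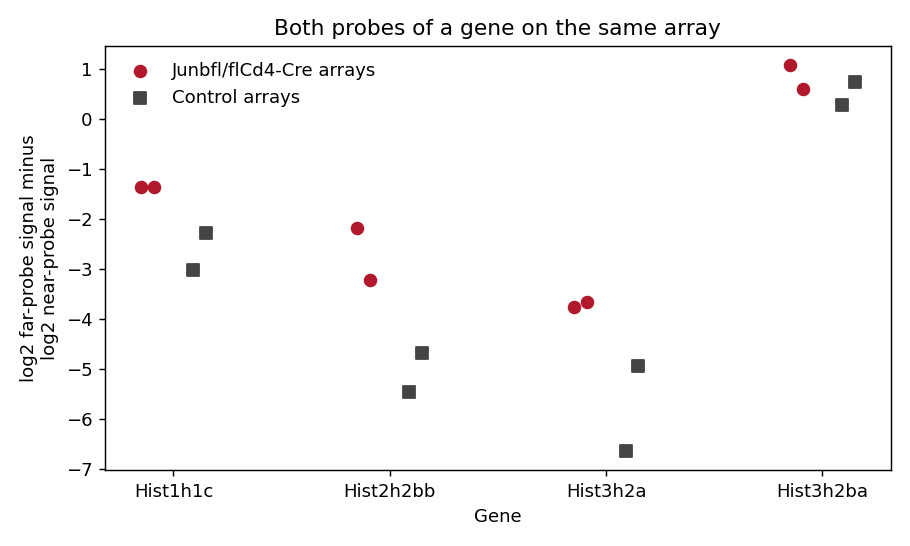
Log2 signal of the far probe minus log2 signal of the near probe of the same gene, on each array, for the 4 genes with both probes tested (red circles: arrays labelled Junbfl/flCd4-Cre; grey squares: Control arrays). In Hist1h1c, Hist2h2bb and Hist3h2a both circles lie above both squares, and in Hist3h2ba they overlap.

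The Control arrays were far apart in this gene family. Control array 1 was above Control array 2 in 42 of the 45 near probes, with a median gap of 0.87 on the log2 scale, close to the difference between genotypes. The arrays labelled Junbfl/flCd4-Cre differed by a median of 0.05. Set against the array of the same number, the near probes had a median of -1.35 for the number 1 arrays and -0.59 for the number 2 arrays. Without Control array 1 the near median was -0.59, and without Control array 2 it was -1.39. The far probes went the opposite way between the controls, by a median of -0.36, and stood at 0.97 and 0.54 against the arrays of the same number. The S phase genes described below had the same order of arrays, with Control array 1 above Control array 2 in 20 of 20 and a median gap of 0.80. Leaving out any 1 of the 4 arrays left 0 of all 33606 probes called in limma, the Hist1h2ac probe included, with 7315 to 11361 at an unadjusted p under 0.05.

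**Figure D4:**
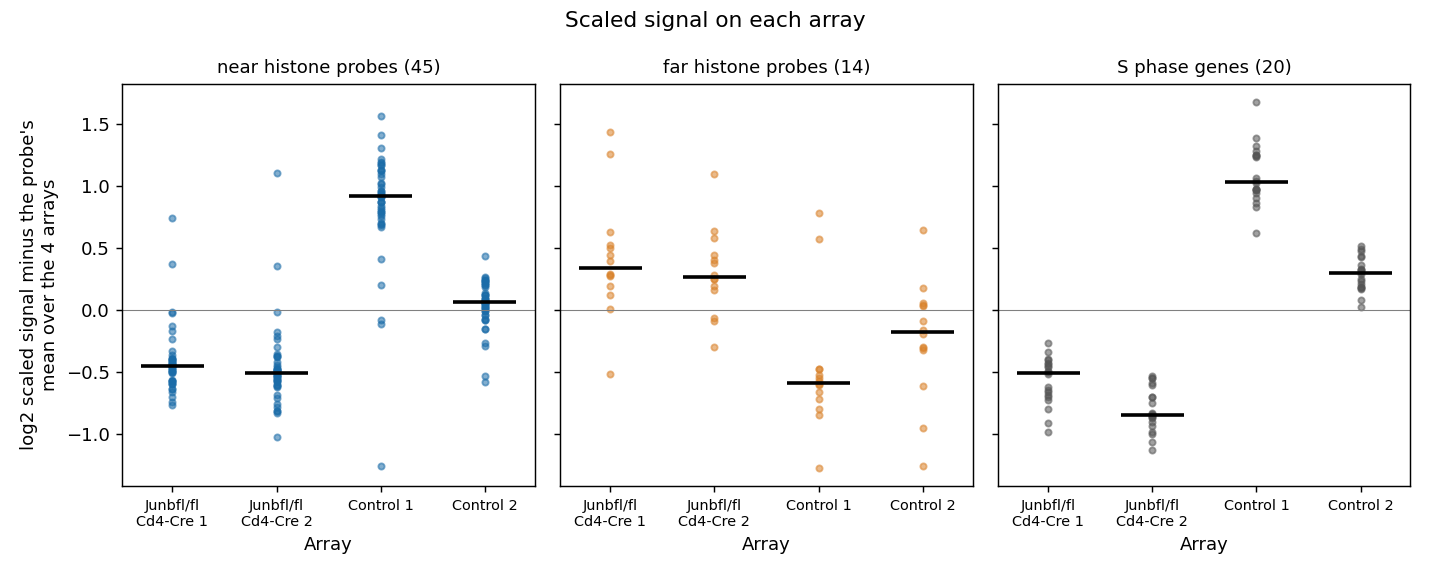
Log2 scaled signal on each array minus the probe's mean over the 4 arrays, for the 45 near histone probes, the 14 far histone probes and the 20 S phase genes (points: probes; bars: medians). By their medians, near histone probes and S phase genes are highest on Control array 1, next on Control array 2 and lowest on the arrays labelled Junbfl/flCd4-Cre, while far probes are lowest on Control array 1.

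The promoters were searched because most near probes differed the same way and Hist1h4h did not. RefSeq promoter windows (GRCm38.p6, 250 bases before to 50 after the start) were matched for 43 of the genes. CCAAT on either strand was in 37 of the 43, against 37.9% of all promoters. It was in every H1, H2A, H2B and H3 window but in 2 of 8 H4 windows. TATAAA was in 25 (14.2% of all), and ATTTGCAT, the letters known for binding Oct factors in H2B promoters, in 9 (1.75% of all), 5 of them H2A and 4 H2B. Several H2A and H2B genes lie head to head and share a window, so these counts are not independent. All 3 were in the windows of Hist1h2aa, Hist1h2ah, Hist2h2ac, Hist1h2ba and Hist1h2bb. The tested near probes of Hist1h2aa, Hist1h2ah and Hist2h2ac differed by -0.93, -1.03 and -0.98, against a median of -1.05 for near H2A probes. Hist1h2ab, whose near probe had the most negative difference among H2A genes, also holds all 3, in capitals on either strand.
Hist1h2ab: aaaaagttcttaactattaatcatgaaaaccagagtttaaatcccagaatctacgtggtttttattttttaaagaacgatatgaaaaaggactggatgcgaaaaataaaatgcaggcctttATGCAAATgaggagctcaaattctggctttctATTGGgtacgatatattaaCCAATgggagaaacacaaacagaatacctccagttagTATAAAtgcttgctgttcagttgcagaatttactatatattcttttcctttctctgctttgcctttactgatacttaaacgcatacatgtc
The Hist4h4 window holds none of the 3, and its probe differed by -0.97, with both arrays labelled Junbfl/flCd4-Cre below both Control arrays. The Hist1h4h window, like that 1 other H4 window, holds none of the 3.
Hist1h4h: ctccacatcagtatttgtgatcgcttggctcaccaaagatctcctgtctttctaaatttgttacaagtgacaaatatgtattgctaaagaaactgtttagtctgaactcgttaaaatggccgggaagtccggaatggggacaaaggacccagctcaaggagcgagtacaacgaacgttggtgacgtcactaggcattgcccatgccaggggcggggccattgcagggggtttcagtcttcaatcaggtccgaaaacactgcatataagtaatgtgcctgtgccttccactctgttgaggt
The first is at chr13:23750838-23751137 and the second at chr13:23530794-23531093 (GRCm38.p6, both plus strand). A match here is a description of letters and says nothing about a factor's binding.

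The listed histone variant genes, called replication-independent here, also stood lower on the arrays labelled Junbfl/flCd4-Cre, by less. Whether each of them is expressed independently of S phase in these cells was not tested. Of 12 listed, 11 had a probe and 10 were tested; 2 were called lower and 0 higher, and all 10 had both arrays labelled Junbfl/flCd4-Cre below both Control arrays. Of all tested probes 1.25% were called lower and 37.8% were wholly below, or 68.9% in the brightest 20%. The median log2 difference of the 10 was -0.49. H2afx, the H2A variant phosphorylated at DNA breaks, had 8.03 and 8.35 on arrays labelled Junbfl/flCd4-Cre and 24 and 18.1 on Control arrays and fell by 1.34 on the log2 scale (SE 0.21, adjusted p = 0.0456). H1fx, a linker histone variant, had 5.43 and 5.55 on arrays labelled Junbfl/flCd4-Cre and 10.7 and 10.8 on Control arrays and fell by 0.97 (SE 0.15, adjusted p = 0.0450); unlike the near probes, its Control arrays read alike. Cenpa, the centromeric H3, differed by -1.0 ± 0.29 and H2afj by -0.94 ± 0.24, neither called. The H2afj probe, at base 412, read 237 and 225 on arrays labelled Junbfl/flCd4-Cre and 538 and 368 on Control arrays. These signals are close to those of H2A probes with long shared stretches, such as Hist2h2ac at 239 and 241 against 576 and 391. Whether the H2afj probe shares bases with theirs was not tested, so its signal may not belong to that gene alone. The H3.3 genes H3f3a and H3f3b had the smallest differences beside H2afv, at -0.32 ± 0.17 and -0.38 ± 0.17.

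Of 16 genes that transcribe or process histone messages, 0 were called in either direction in limma and 15 had both arrays labelled Junbfl/flCd4-Cre below both Control arrays, with a median of -0.60. At an unadjusted p under 0.05, 10 were lower, against 18.4% of all probes, and 37.8% of all were wholly below. In the brightest class described above 68.9% of all probes were wholly below, and in the next brightest 54.5%. Ccne2, among these 10, was at background on both arrays labelled Junbfl/flCd4-Cre and entered only through the Control arrays (at least 1.68-fold lower). Ccne1, cyclin E1, which with Cdk2 activates Npat at S phase entry, had 4.65 and 4.41 on arrays labelled Junbfl/flCd4-Cre and 16.9 and 9.79 on Control arrays (-1.51 ± 0.31, adjusted p = 0.0654). Lsm11 of the U7 snRNP, which cuts the histone message after the stem-loop, differed by -0.81 ± 0.19, the cap-binding Ncbp2 by -0.71 ± 0.17 and Cpsf3, the endonuclease that makes the cut, by -0.59 ± 0.15 (adjusted p = 0.0735, 0.0773 and 0.0829). Slbp read 3.06 and 2.47 on arrays labelled Junbfl/flCd4-Cre and 5.04 and 2.85 on Control arrays, so its genotypes overlapped (-0.46 ± 0.34). Npat, the coactivator of histone transcription, differed by -0.48 ± 0.17.

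The 17 histone chaperones and related factors gave 0 calls in limma, 10 at an unadjusted p under 0.05, all lower, and a median of -0.60. In 12 both arrays labelled Junbfl/flCd4-Cre were below both Control arrays and in 1, Daxx, above. The shares over all probes were 18.4% for an unadjusted p under 0.05 and lower, and 37.8% wholly below. In the brightest class described above, where most of these genes lie by their signals, 68.9% of all probes were wholly below. In the CAF-1 complex, which places new H3 and H4 behind the replication fork, Chaf1a differed by -1.59 ± 0.43 and Chaf1b by -1.29 ± 0.31, the most negative of the list, and Rbbp4 by -0.60 ± 0.21. Rbbp7 differed by -0.90 ± 0.21 and Nap1l1 by -0.85 ± 0.21. The H3.3 chaperones Hira, Atrx and Daxx, which act outside S phase as well, differed by -0.35, -0.06 and 0.24.

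The 20 S phase genes were lower in all 20, with both arrays labelled Junbfl/flCd4-Cre below both Control arrays, a median of -1.31, and 1 call. Of all tested probes 37.8% were wholly below, 68.9% of the brightest 20%, and 1.25% were called lower. Pola1, the catalytic subunit of DNA polymerase alpha, had 1.46 and 1.34 on arrays labelled Junbfl/flCd4-Cre and 4.81 and 3.39 on Control arrays and fell by 1.53 (SE 0.23, adjusted p = 0.0454). Cdc45 differed by -1.77 ± 0.31, Rrm2 by -1.86 ± 0.36 and Tyms by -1.67 ± 0.34 (adjusted p = 0.0547, 0.0606 and 0.0643). The near histone probes and these genes share arrays, so their like order over the arrays is no independent evidence.

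**Figure D5:**
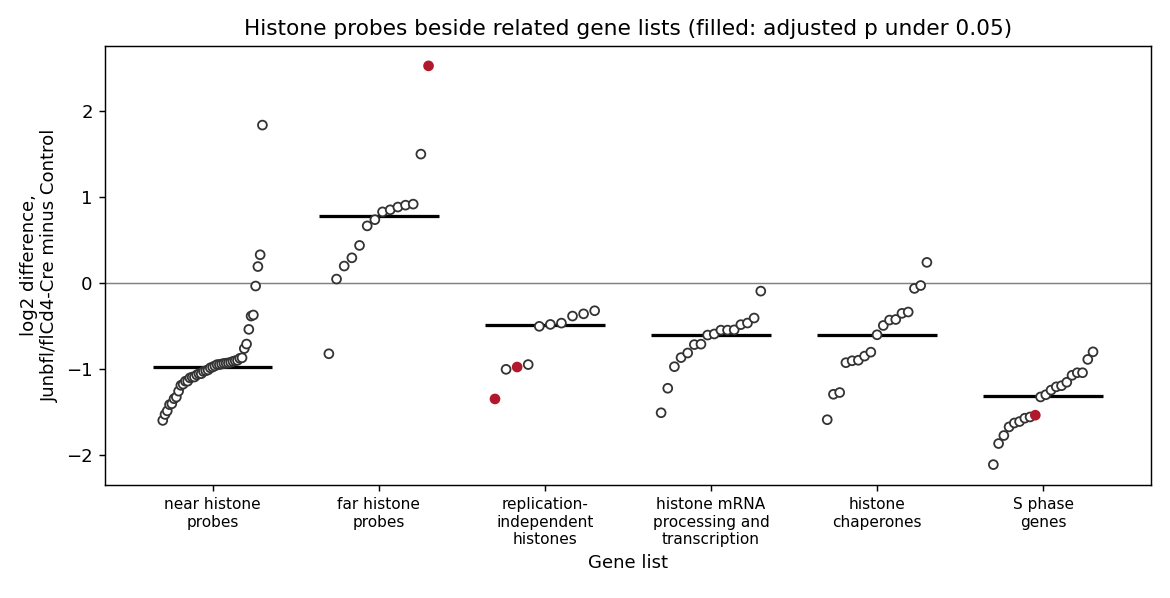
Log2 difference between genotypes for near and far histone probes and for the related gene lists (points: 1 probe each; bars: medians; filled red: adjusted p under 0.05). The medians are -0.97, 0.79, -0.49, -0.60, -0.60 and -1.31 from left to right, and the far histone probes alone lie mostly above 0.

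Markers of the labelled cell type were present, and those of other cells were also read, since the extraction label names colon while the other labels name Treg cells. All 10 T cell markers and all 4 Treg markers were well above background on every array. Of the 10 T cell markers 5 had positive and 5 negative differences, with 0 called higher. Thy1 (-0.98) and Cd2 (-1.33) were called lower (limma adjusted p = 0.0452 and 0.0495), against 1.25% of all tested probes. The summed scaled signal of the T cell list was 925 and 835 on arrays labelled Junbfl/flCd4-Cre and 1014 and 1006 on Control arrays. For Treg markers it was 29 and 49.9 against 96.3 and 94.0, but the 4 went both ways: Ikzf2 rose (log2 difference 4.56, adjusted p = 0.0306), Ctla4 fell by 1.47 (adjusted p = 0.0484), and Il2ra and Foxp3 differed by -1.67 and -1.20. Of 12 colon epithelium markers, Epcam, Krt18 and Car1 were well above background on all 4 arrays, and Krt8 on 3. Slc26a3 and Lgr5 were so only on the arrays labelled Junbfl/flCd4-Cre, where Slc26a3 was at least 8.44-fold higher (adjusted p = 0.0265) and Lgr5 at least 3.75-fold (adjusted p = 0.0569). Vil1, Fabp2, Muc2, Cdh1, Krt19 and Krt20 were above background on no array. The list summed to 1.44 and 1.32 on arrays labelled Junbfl/flCd4-Cre against 0.741 and 0.809 on Control arrays. Stroma markers summed to 0.683 and 0.471 against 0.221 and 0.198, and B cell markers to 7.38 and 4.94 against 3.64 and 1.44. Dcn of 2 tested stroma markers and Ms4a1 and Ebf1 of 6 tested B cell markers were called higher, against 5.53% of all probes. Dcn entered only through the arrays labelled Junbfl/flCd4-Cre. By signal Dcn, Ebf1 and Lgr5 lie in the dimmest class of probes described above. In that class 949 of 6721 were called higher and 57.9% were wholly above. Slc26a3 lies in the second dimmest class, where 46.9% were wholly above, and Ms4a1 in the middle one, with 34.4%. Myeloid markers summed to 60.7 and 31.1 against 25.6 and 16.7. Most of this sum was Itgam, at 54.9 and 21.0 against 23.7 and 13.4, so its genotypes overlapped. Of 6 tested myeloid markers 0 were called, and Adgre1 and Fcgr1 were above background on no array. The part of these other cell types in the histone values was not tested.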

How the data were processed

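RNA of 4 samples was hybridised to single-colour arrays on 1 slide. Per the file headers, Agilent Feature Extraction 11.5.1.1 gave each spot a processed intensity, background-subtracted and not scaled between arrays, and flags; positions are on mm9. The authors' deposited table gives log2 signals, log2 differences and p-values per accession; the sources used here do not say how it was made.

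Flagged spots were left out (108 to 215 per array), spots of a probe were averaged, and 295 of 56605 probes were dropped for lack of an unflagged spot on some array. The log2 processed signal minus the array's 75th percentile was compared with limma 3.58.1 (R 4.3.3), with no covariate and Benjamini-Hochberg adjustment over 33606 probes; the code was tested on simulated data. Called means an adjusted p under 0.05. For the "at least" folds, signals not above background in a whole genotype were raised to the array's lowest signal well above background where they lay below it. The number of arrays limits the precision. Python 3.11.15, pandas 2.3.3, numpy 2.4.6 and matplotlib 3.10.9 made the tables and plots. RefSeq (GRCm38.p6) matched 52 histone probes by accession.

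Members, lists and tests were chosen with earlier results of these data known. Named probes were Junb, the 2 brightest and the 2 lowest and 2 highest differences per histone class, every called histone probe, and the 4 smallest p per related list; other genes were named after their values were seen. Alternatives were other scalings and filters, background correction, a replicate block, left-out arrays and the deposited table.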

Additional observations from a re-analysis of the deposited data

How the results depend on the processing

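Precision is limited by the 2 arrays per genotype, and probes near background give only bounds. Under quantile normalization 473 of all probes were called higher and 177 lower, with 1 and 0 of the histone probes, 0 replication-independent histone genes lower and 0 S phase genes lower. Normexp background correction with quantile normalization gave 249 higher and 89 lower, with 0 histone probes, 0 replication-independent and 0 S phase genes. In both settings the H2B class median turned negative, at -0.047 and -0.036; H1 moved to -0.61 in each, and under normexp the far probes moved to 0.27, the chaperones to -0.31 and the replication-independent genes to -0.35. Scaling to array medians moved the median of all probes from -0.01 to -0.54, and no scaling moved it to -0.44, so the following are to be read against those shifts. Median scaling called 10567 of all probes lower, and among histone probes 2 higher and 35 lower; of the lists, 10 replication-independent, 14 processing, 12 chaperone and 20 S phase genes were lower. Its class medians were -1.44 for H1, -1.54 for H2A, -0.36 for H2B, -1.55 for H3 and -1.45 for H4, with 0.25 for far probes, and -1.02, -1.13, -1.13 and -1.84 for the 4 lists in the same order. Without scaling 5623 of all probes were lower, with 2 histone probes higher and 32 lower, and 4, 8, 10 and 19 genes of the lists; medians were -1.34 for H1, -1.43 for H2A, -0.26 for H2B, 0.36 for far probes, and -0.92, -1.03 and -1.03 for the first 3 lists. Requiring all 4 arrays above background gave 1023 higher over all probes; there Hist1h4h was called and Hist1h2ac was not tested. With no filter 0 of 56310 probes were called either way in limma (12028 at an unadjusted p under 0.05), 0 histone probes and 0 genes of the replication-independent and S phase lists among them, and the H1 median was -0.64. With dim signals at their floor 2 histone probes were higher (Hist1h2ac and Hist1h4h) and 1 lower (Hist2h2ab). The replicate block, in which both number 1 arrays also share a slide row, called 5745 probes higher and 2777 lower (17.1% and 8.26%), and 6 of 59 histone probes higher and 17 lower, with 2 processing, 7 chaperone and 18 S phase genes lower. The numbers were not taken as pairs, since 2 pairs cannot settle it (the array 1 minus array 2 differences correlated at 0.45 between genotypes across probes). In the table the authors deposited, accessions called numbered 468 higher and 173 lower, with 1 replication-independent gene and 0 S phase genes lower, and medians of -0.63 for H1, -0.15 for H2B, 0.42 for far probes and -0.27 for replication-independent genes.

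With only probes naming 1 RefSeq accession, a choice made after seeing the data, 0 of 31 histone probes were called higher, since Hist1h2ac names none, and the medians were -1.34 for H2A and -0.45 for H2B. Leaving out each array in turn, which assumes that the lone array of a genotype varies like the other genotype, gave from 0 to 0 calls in every count; between 7315 and 11361 probes had an unadjusted p under 0.05. Medians then ran from -1.37 to -0.44 for H1, from -1.60 to -0.57 for H3, from -1.33 to -0.43 for H4, from 0.012 to 0.25 for H2B, from -0.81 to -0.39 for the chaperones, and from -0.65 to -0.40 for the replication-independent genes; for H1 and H3 the lowest is without Control array 2 and the highest without Control array 1. Single probes that changed sign were Hist1h1t (-0.37 under quantile normalization, -0.34 under median scaling, -0.24 without scaling, -0.055 under normexp, and as low as -0.080 with an array left out, against up to 0.47), Hist2h3c2 (-0.22, -0.33, -0.23 and -0.075 in the same settings, and -0.54 to 0.94 with an array left out), Hist2h3c1 (-0.092 under median scaling) and Hist1h4i (-0.86 to 0.10 with an array left out). The cause of these changes was not tested. Using 1 probe per gene name kept 1 histone call, the same probe. The slide and scan block was not run because all arrays share 1 slide and 1 scan.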
